A study of Homo sapiens with 12 samples.

Results

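The ATP-binding cassette (ABC) genes were taken as the protein-coding genes whose symbol consists of ABC, a subfamily letter from A to G and a number, after the Ensembl identifiers of the count tables had been named with GENCODE 29. This rule found 45 genes among the 57500 counted. Of these, 12 belonged to subfamily ABCA, 9 to ABCB, 11 to ABCC, 4 to ABCD, 1 to ABCE, 3 to ABCF and 5 to ABCG, and they lay on 17 chromosomes. RNA was sequenced from HepG2, an established human hepatocellular carcinoma line, as 4 libraries each of wild-type cells (WT), cells in which thiosulfate sulfurtransferase was silenced by a short hairpin RNA (shTST) and cells overexpressing that enzyme (overTST). TST, or rhodanese, is a mitochondrial enzyme that detoxifies cyanide by converting it to thiocyanate. All 12 libraries came from cells in medium with 400 µM glycine for 24 h. The overexpressing line carried a codon-optimised TST coding sequence behind a CMV promoter. For both engineered lines the methods describe delivery by lentivirus, with this vector or a TST short hairpin plasmid, and blasticidin selection. The labels of the WT cells name no control vector. The part of transduction and selection in the differences from WT was not tested. The comparisons ask which ABC transcripts differ between these lines. The methods name no more than 1 line of each engineered kind. An effect of the TST level therefore cannot be told apart from other differences between the lines.

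ABC proteins bind and hydrolyse ATP, and most use it to move lipids, conjugated metabolites, drugs, peptides or metal complexes across a membrane. Some are complete transporters in 1 chain and others, such as those of peroxisomes and mitochondria, work as dimers, while the ABCE and ABCF proteins have no membrane-spanning part and act at the ribosome. In the liver the family is known for the bile canaliculus, where ABCB11 exports bile salts, ABCB4 phosphatidylcholine, ABCC2 bilirubin and drug conjugates, and ABCG5 with ABCG8 sterols.

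The libraries held 22911380 to 45120508 counts, with 22911380 to 27414142 in overTST and 28866175 to 45120508 in WT (two-sided exact permutation test on 4 against 4, p = 0.0286, the smallest p this design can give). TST itself had 47.2, 47.5, 52.8 and 48.5 counts per 1000000 (CPM) in WT, 33.0, 33.5, 36.5 and 33.5 CPM in shTST, and 51.8, 56.0, 61.6 and 62.1 CPM in overTST. Its level in shTST lay below every WT library, with a log2 fold change of -0.52 ± 0.05 (SE, adjusted p = 3.20e-06). In overTST it was 0.24 ± 0.06 (SE, adjusted p = 0.00384), with an overlap of the groups, and 0.10 (adjusted p = 0.201) after the correction for gene length described below. A codon-optimised copy differs in sequence from the gene counted here, so this count is no check of the transgene. Hepatocyte markers such as ALB, AFP and APOA1 were abundant in every library (10 of 10 tested). In shTST 5 of them were higher and 2 lower than in WT, beside 6.69% and 9.40% of all genes. In overTST 2 were higher and 2 lower, beside 15.7% and 18.2%. Of 10 markers of blood, endothelial and stromal cells 5 were too low to be tested, PTPRC and CD3E had at most 1 count, and the 10 together summed to 3.04 to 5.10 TPM, counts divided by gene length and scaled as CPM are. In overTST PECAM1 was 0.60 ± 0.15 (SE, adjusted p = 0.00278) and CDH5 -1.31 ± 0.40 (SE, adjusted p = 0.0129), and the part of these markers in the results was not tested. Since these are bulk samples, fewer cells of a type and less RNA per cell cannot be told apart.

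Fold changes depended on gene length, and this touches the ABC genes. Across all genes tested, the log2 fold change of overTST against WT had a Spearman correlation with the summed exon length of -0.404, that of shTST against WT -0.0900, and that of shTST against overTST 0.357. These correlations run across genes, which are not independent replicates. Single libraries were also set against the mean of WT, without the library itself. This correlation ran from -0.241 to 0.220 in WT, -0.146 to -0.0371 in shTST and -0.369 to -0.268 in overTST, so it also varied among WT libraries. ABC genes are long: their median exonic length was 7559 bases against 4170 bases for all protein-coding genes, and 42 of 45 were longer than that median. The share of counts on mitochondrially encoded genes also differed, at 6.91 to 11.98% in WT, 6.84 to 8.65% in shTST and 10.8 to 11.7% in overTST. Without these genes in the fit, 8 ABC genes were lower in shTST and 14 lower and 1 higher in overTST, against 8, 15 and 1 with them. Among all genes of that fit, 1338 of 14606 were lower in shTST, and 2588 of 14425 lower and 2315 higher in overTST. The counts for the family are therefore given both as counted and after a smooth trend on length had been removed from every library ("length-corrected"). For single genes the length-corrected value is added where it changed the call or the sign or moved the fold change by over 1.5 times, and otherwise the value is as counted.

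HepG2 cells transcribed 31 of the 45 ABC genes above the filter on low counts, and 27 of these reached a mean of 1 TPM in WT. TPM divides the counts by gene length, so that levels of different genes can be set side by side. The highest was ABCF1, a factor in translation initiation, with 209.4 ± 19.7 TPM (SD, n = 4). Among the genes named here ABCC1, an exporter of glutathione conjugates, came next with 61.9 ± 6.97 TPM, and each of the 4 WT values of ABCF1 exceeded every value of ABCC1. From ABCC1 down to ABCG2 at 8.07 ± 0.616 TPM, no named gene was separated from the next one in this order. Of 42 neighbouring pairs, 7 were separated in this way. Among the canalicular transporters ABCC2 stood at 46.7 ± 4.71 TPM, ABCB1 at 25.9 ± 2.63 TPM, ABCG8 at 17.9 ± 2.45 TPM, ABCB4 at 6.05 ± 0.605 TPM and ABCG5 at 4.36 ± 0.463 TPM.

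The remaining 14 genes had 0 to 6 counts in any library and were not tested. ABCB11, the bile salt export pump, had 5 counts over the 12 libraries, all of them in shTST. ABCG1, which exports cholesterol to lipoproteins, had 13 counts in all, and its relative ABCG4 had 3. The sulfonylurea receptors ABCC8 and ABCC9, subunits of ATP-sensitive potassium channels, had 4 and 3 counts. The peroxisomal ABCD2 had 2. Of the other genes, ABCA6 had 38 counts over all libraries, ABCA12, a lipid transporter of skin, 34, ABCA8 25, ABCA13 15, ABCC12 6, ABCA10 5, ABCA9 3 and ABCB5 2. A count of 0 allows up to 3 counts, which is 0.0658 to 0.136 CPM depending on the library, and these limits cover counting error only. ABCA12, ABCA6 and ABCA8 were detected at a low level, with reads in 11, 10 and 9 of the 12 libraries and at most 6 counts in any of them.

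Promoter windows from RefSeq (GRCh38.p14, 250 bases before to 50 bases after an annotated start) were listed for 35 of the 45 genes, as 53 windows. Of these, 5 are printed because their genes carried the patterns below: ABCB1 and ABCC2, lower in both engineered lines, ABCA1 and ABCD3, lower in overTST, and ABCB6, higher in overTST. They were chosen after the values were seen. For ABCB1 another window was listed, at chr7:87713246-87713545 with 37.7% G and C. It lies at the start of the gene as counted and is not printed, while the printed window lies inside the gene as counted. Each is written 5′ to 3′ on the strand of its gene, and capitals mark the letters CACGTG (an E-box), GGGCGG (a GC box) and TATAAA on either strand, as well as AGGTCA, a core bound by nuclear receptors, which occurred in none of the 5.
ABCB1, chr7:87600835-87601134, minus strand: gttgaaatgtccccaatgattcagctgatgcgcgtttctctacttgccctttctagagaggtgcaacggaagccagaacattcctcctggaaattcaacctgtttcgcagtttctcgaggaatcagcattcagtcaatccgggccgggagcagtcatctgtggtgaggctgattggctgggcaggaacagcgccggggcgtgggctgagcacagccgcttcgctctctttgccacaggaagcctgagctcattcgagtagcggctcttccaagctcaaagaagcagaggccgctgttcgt
ABCC2, chr10:99782390-99782689, plus strand: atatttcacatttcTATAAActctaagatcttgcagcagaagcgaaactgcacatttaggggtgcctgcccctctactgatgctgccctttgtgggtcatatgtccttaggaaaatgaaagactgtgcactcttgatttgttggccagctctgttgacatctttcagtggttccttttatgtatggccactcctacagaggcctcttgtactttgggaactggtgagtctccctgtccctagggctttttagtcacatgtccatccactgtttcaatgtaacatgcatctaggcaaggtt
ABCA1, chr9:104928106-104928405, minus strand: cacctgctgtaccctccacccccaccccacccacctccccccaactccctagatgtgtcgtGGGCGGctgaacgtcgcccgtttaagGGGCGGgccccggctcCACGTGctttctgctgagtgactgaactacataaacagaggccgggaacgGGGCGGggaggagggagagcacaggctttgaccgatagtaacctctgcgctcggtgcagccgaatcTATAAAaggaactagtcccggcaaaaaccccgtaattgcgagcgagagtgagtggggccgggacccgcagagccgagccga
ABCD3, chr1:94418139-94418438, plus strand: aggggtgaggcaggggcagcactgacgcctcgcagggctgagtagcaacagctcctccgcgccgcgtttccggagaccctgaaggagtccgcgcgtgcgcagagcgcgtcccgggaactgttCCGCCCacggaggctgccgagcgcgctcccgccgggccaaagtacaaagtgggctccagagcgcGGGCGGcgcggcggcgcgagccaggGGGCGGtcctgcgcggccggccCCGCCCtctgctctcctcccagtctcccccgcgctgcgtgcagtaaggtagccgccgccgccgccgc
ABCB6, chr2:219218909-219219208, minus strand: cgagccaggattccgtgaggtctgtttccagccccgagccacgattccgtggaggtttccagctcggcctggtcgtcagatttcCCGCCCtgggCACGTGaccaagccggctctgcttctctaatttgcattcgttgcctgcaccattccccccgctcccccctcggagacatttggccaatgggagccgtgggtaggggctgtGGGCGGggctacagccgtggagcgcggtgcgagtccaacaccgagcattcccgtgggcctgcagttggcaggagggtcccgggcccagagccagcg

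The windows had little in common by these letters. GGGCGG was found 4 times in the ABCD3 window, 3 times in that of ABCA1 and 2 times in that of ABCB6, but not in those of ABCB1 and ABCC2. CACGTG occurred once each in the windows of ABCA1 and ABCB6, and TATAAA once each in those of ABCA1 and ABCC2. Base composition of the printed windows ran from 45.0% G and C in ABCC2 over 55.3% in ABCB1, 62.7% in ABCA1 and 65.7% in ABCB6 to 75% in ABCD3. Over all 53 windows of ABC genes GGGCGG was in 25, CACGTG in 9, TATAAA in 8 and AGGTCA in 3. In all 35116 windows of the same length the shares were 45.0%, 7.26%, 11.5% and 13.8%. These are matches of letters and nothing more, and several genes contribute more than 1 window.

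Counts of called genes summarise the family. A gene was called at an adjusted p of at most 0.05 in edgeR's quasi-likelihood test, adjusted over all genes tested. In shTST against WT, 8 of the 31 ABC genes were lower and 0 higher, beside 9.40% lower and 6.69% higher among all 14584 genes. The 0 higher genes were also 0 with DESeq2 and limma-voom, and 1, ABCA1, at an unadjusted p under 0.05. Without shTST replicate 1 the lower genes numbered 5, beside 869 of all 14862 genes tested in that fit. In overTST against WT, 15 were lower and 1 higher, beside 18.2% lower and 15.7% higher among 14421 genes, and without overTST replicate 4 the 1 higher gene was no longer called. After length correction the counts were 8 lower and 1 higher for shTST, beside 9.88% and 8.05% of all genes, and 11 lower and 1 higher for overTST, beside 14.3% and 14.2%. The median log2 fold change of the 31 genes was -0.11 in shTST and -0.16 in overTST, against 0.0040 and 0.0019 for all genes, and -0.09 and -0.11 after length correction. Both comparisons use the same 4 WT libraries.

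The comparison of shTST with overTST needs no WT library. As counted, 10 ABC genes were higher in shTST and 2 lower, beside 16.9% and 16.1% of 14883 genes. With length correction these counts became 4 higher and 5 lower, beside 13.0% and 14.9%, and the median of the 31 fell from 0.10 to 0.02. The direction of the family as a whole between the engineered lines depended on the length correction, whereas ABCA1, ABCD3 and ABCB10 were higher and ABCB6 lower in shTST either way. Without single libraries the count of higher genes was 5 (without shTST replicate 4 or overTST replicate 2) to 11, and it was 6 without overTST replicate 3. Among all genes 2129 of 15076 were higher without shTST replicate 4, 2047 of 15073 without overTST replicate 2 and 2121 of 15068 without overTST replicate 3. That of lower ABC genes was 1 without shTST replicate 2 or 3 or overTST replicate 3 or 4, beside 1913 to 2237 of all genes in these fits.

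**Figure D1:**
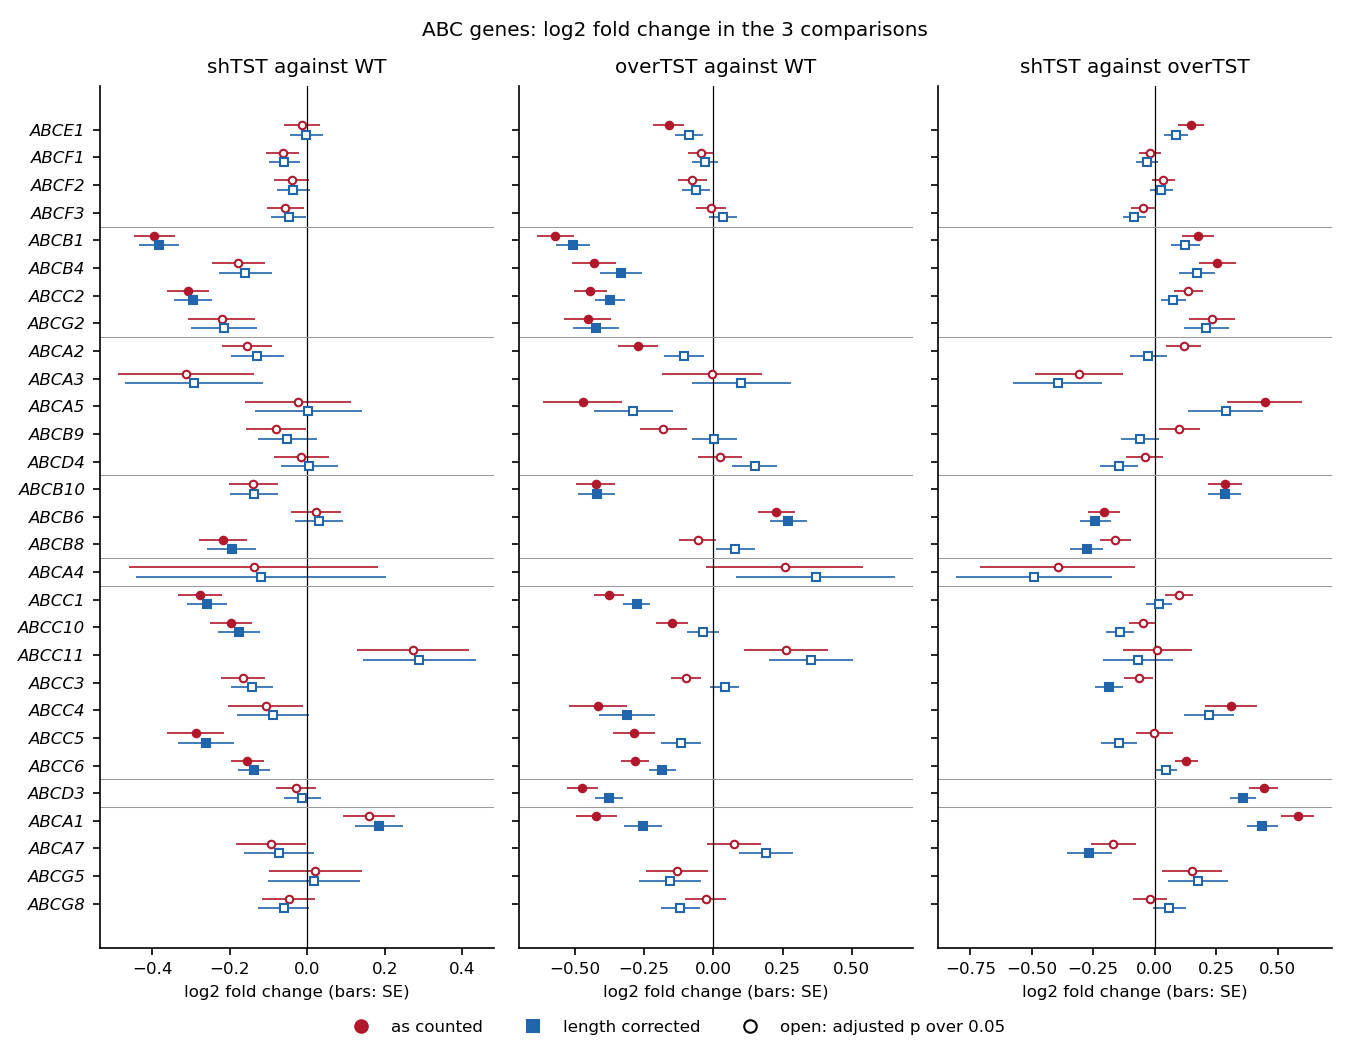
Log2 fold changes of 29 tested ABC genes in the 3 comparisons, grouped by role, with bars for the standard error, as counted (circles) and length-corrected (squares), and filled symbols at an adjusted p of at most 0.05. ABCB1 and ABCC2 lie below 0 in both comparisons with WT, while ABCA1 and ABCD3 lie above 0 in the direct comparison and ABCB6 below.

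ABCB1, ABCB4, ABCC2 and ABCG2, which export drugs and bile constituents, were the group with the lowest values. These 4 were lower in overTST, beside 18.2% of all genes, and 2 of them in shTST, beside 9.40%, with medians of -0.45 and -0.26. After length correction the counts were again 4 and 2, beside 14.3% and 9.88%. ABCB11, also of this group, was too low to be tested. ABCG5 and ABCG8, also canalicular, were grouped with the sterol exporters and were called in neither line. ABCB1, or P-glycoprotein, exports a wide range of drugs (ENSG00000085563, chr7:87503633-87713323, minus strand, with coordinates here and below as in the count tables, on GRCh38). ABCB1 had 53.5, 57.5, 50.8 and 52.2 CPM in WT, 40.2, 43.3, 38.3 and 41.2 CPM in shTST and 40.5, 32.7, 37.1 and 33.6 CPM in overTST. No library of either engineered line reached the lowest WT value. The log2 fold change was -0.39 ± 0.05 (SE, adjusted p = 5.91e-05) in shTST and -0.57 ± 0.07 (SE, adjusted p = 9.63e-07) in overTST, and -0.38 (adjusted p = 2.43e-05) and -0.51 (adjusted p = 1.88e-06) after length correction. Between the engineered lines it was 0.18 ± 0.06 (SE, adjusted p = 0.0370), with overlapping groups, and this call was lost with length correction, at 0.12 (adjusted p = 0.123), and without any 1 of shTST replicates 1, 2 and 4 (adjusted p = 0.0577, 0.121 and 0.0771) or overTST replicates 2, 3 and 4 (adjusted p = 0.149, 0.0506 and 0.122). In GENCODE 29 ABCB1 overlaps RUNDC3B on the opposite strand.

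ABCC2, known as MRP2, carries bilirubin glucuronides and other conjugates into bile (ENSG00000023839, chr10:99782732-99852192, plus strand). ABCC2 had 101.9, 114.4, 94.03 and 103.2 CPM in WT, 85.9, 85.8, 78.1 and 84.7 CPM in shTST and 80.6, 69.6, 79.4 and 74.2 CPM in overTST. Here too every library of shTST and overTST was below every WT library. The changes were -0.31 ± 0.05 (SE, adjusted p = 5.39e-04) and -0.44 ± 0.06 (SE, adjusted p = 6.04e-06), and -0.30 (adjusted p = 2.53e-04) and -0.37 (adjusted p = 2.24e-05) after length correction. The difference between shTST and overTST was 0.14 ± 0.06 (SE, adjusted p = 0.0700), with a 95% interval, not adjusted for the number of genes, of 0.02 to 0.25, and 0.08 (adjusted p = 0.302) after length correction. As counted it passed with no filter (adjusted p = 0.0314), in a fit of the 8 libraries compared (adjusted p = 0.0439), without shTST replicate 3 (adjusted p = 0.0349) and without overTST replicate 1 (adjusted p = 0.0305). Leaving out overTST replicate 2 gave 0.10 (adjusted p = 0.242).

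ABCB4, also called MDR3, moves phosphatidylcholine to the outer leaflet of the canalicular membrane (ENSG00000005471, chr7:87401697-87480435, minus strand). ABCB4 had 15.7, 16.7, 16.3 and 15.6 CPM in WT, 15.1, 13.2, 14.2 and 14.3 CPM in shTST and 12.5, 11.98, 10.7 and 12.5 CPM in overTST. The overTST values lay below all WT values and the shTST values in between, without overlap of any pair of groups. The log2 fold change was -0.43 ± 0.08 (SE, adjusted p = 1.72e-04) in overTST and -0.18 ± 0.07 (SE, adjusted p = 0.0810) in shTST, the latter not called. The direct difference of 0.25 ± 0.08 (SE, adjusted p = 0.0108) was lost with length correction, at 0.17 (adjusted p = 0.0851), and without overTST replicate 3 (adjusted p = 0.0550).

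ABCG2, the breast cancer resistance protein, exports drugs, urate and porphyrins (ENSG00000118777, chr4:88090264-88231322, minus strand). ABCG2 had 13.8, 14.7, 12.9 and 14.2 CPM in WT, 10.5, 13.4, 10.6 and 13.3 CPM in shTST and 11.04, 9.23, 10.5 and 9.86 CPM in overTST. The overTST libraries lay below WT, and the shTST libraries split into a pair near WT and a pair near overTST. The fold change was -0.45 ± 0.08 (SE, adjusted p = 2.21e-04) in overTST and -0.22 ± 0.09 (SE, adjusted p = 0.0872) in shTST. Without shTST replicate 2 the latter passed the threshold (adjusted p = 0.0475). It also passed with the replicate block (adjusted p = 0.0441) and with length correction and the block (adjusted p = 0.0451). Without shTST replicate 1 it was -0.16 (adjusted p = 0.281). The direct difference was 0.23 ± 0.09 (SE, adjusted p = 0.0559), and it passed with no filter (adjusted p = 0.0429) and without shTST replicate 1 or 3 or overTST replicate 1 (adjusted p = 0.0273, 0.0240 and 0.0317). This difference was 0.17 (adjusted p = 0.196) without shTST replicate 2.

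The other multidrug-resistance-associated proteins of subfamily ABCC export organic anions, nucleotides and conjugates across the plasma membrane. Of 7 tested members, 4 were lower in shTST, beside 9.40% of all genes, and 5 in overTST, beside 18.2%. After length correction 3 were lower in overTST, beside 14.3%. ABCC1, or MRP1, exports glutathione conjugates and leukotrienes (ENSG00000103222, chr16:15949577-16143074, plus strand). ABCC1 had 161.5, 185.9, 158.4 and 159.8 CPM in WT, 126.6, 149.8, 130.5 and 142.5 CPM in shTST and 128.8, 133.8, 129.7 and 120.1 CPM in overTST. Both engineered lines lay below WT without overlap, at -0.28 ± 0.06 (SE, adjusted p = 0.00205) in shTST and -0.38 ± 0.05 (SE, adjusted p = 1.33e-05) in overTST, and length correction gave -0.26 (adjusted p = 0.00129) and -0.28 (adjusted p = 2.02e-04). Between the engineered lines ABCC1 was not called, at 0.10 ± 0.06 (SE, adjusted p = 0.188) as counted and 0.02 (adjusted p = 0.860) length-corrected.

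ABCC6, whose loss causes the calcification disorder pseudoxanthoma elasticum, releases ATP from hepatocytes (ENSG00000091262, chr16:16148928-16223522, minus strand). ABCC6 had 94.5, 97.5, 94.1 and 98.5 CPM in WT, 85.1, 84.9, 87.9 and 87.3 CPM in shTST and 77.7, 74.8, 79.7 and 83.6 CPM in overTST. The 3 groups did not overlap, with WT highest and overTST lowest. The changes were -0.15 ± 0.04 (SE, adjusted p = 0.0146) in shTST, -0.28 ± 0.05 (SE, adjusted p = 1.28e-04) in overTST and 0.13 ± 0.05 (SE, adjusted p = 0.0308) for shTST minus overTST. Length correction moved the value in overTST to -0.18 (adjusted p = 0.00592). The first was lost without WT replicate 4 or shTST replicate 1 or 2 (adjusted p = 0.0682, 0.0561 and 0.0516), and the last was lost with length correction, at 0.04 (adjusted p = 0.507), without shTST replicate 3 or 4 (adjusted p = 0.0716 and 0.0737), and without overTST replicate 1, 2 or 3 (adjusted p = 0.0513, 0.109 and 0.0547). Its values are uncertain because 2 pseudogene copies on the same chromosome, ABCC6P1 with 755 to 1384 counts and ABCC6P2 with 150 to 204 counts in a library, can share its reads.

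ABCC5, or MRP5, exports cyclic nucleotides (ENSG00000114770, chr3:183919934-184018015, minus strand). ABCC5 had 19.9, 19.6, 17.9 and 17.1 CPM in WT, 13.6, 15.2, 15.7 and 16.5 CPM in shTST and 14.99, 14.9, 16.02 and 15.2 CPM in overTST. WT was higher than both engineered lines in every library. The values were -0.29 ± 0.07 (SE, adjusted p = 0.0104) and -0.29 ± 0.08 (SE, adjusted p = 0.00458), but length correction left the first at -0.26 (adjusted p = 0.0139) and the second at -0.12 (adjusted p = 0.236). Without shTST replicate 1 the call in shTST was lost (adjusted p = 0.0558). The direct difference was -0.0012 ± 0.08 (SE, adjusted p = 0.993), with a 95% interval of -0.15 to 0.15, and -0.15 (adjusted p = 0.152) length-corrected.

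ABCC10, or MRP7, also exports drugs and conjugates (ENSG00000124574, chr6:43427366-43450430, plus strand). ABCC10 had 40.1, 40.9, 43.1 and 40.9 CPM in WT, 34.9, 34.5, 35.95 and 38.6 CPM in shTST and 35.4, 38.3, 37.9 and 37.2 CPM in overTST. Both engineered lines again lay below WT, at -0.20 ± 0.05 (SE, adjusted p = 0.0148) in shTST and -0.15 ± 0.06 (SE, adjusted p = 0.0461) in overTST. In shTST the call was lost without replicate 1 or 2 of that line (adjusted p = 0.0596 and 0.0566). In overTST it was lost in 14 of 19 alternatives, among them the removal of any 1 library (adjusted p from 0.0538 to 0.115) and length correction, at -0.04 (adjusted p = 0.670).

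ABCC4, or MRP4, exports bile acids and cyclic nucleotides across the basolateral membrane (ENSG00000125257, chr13:95019829-95301446, minus strand). ABCC4 had 11.7, 11.2, 8.99 and 9.84 CPM in WT, 9.58, 11.3, 9.15 and 8.76 CPM in shTST and 7.98, 8.68, 8.09 and 6.50 CPM in overTST. The overTST libraries were below the other groups, and shTST overlapped WT. The values were -0.42 ± 0.11 (SE, adjusted p = 0.00333) in overTST, -0.11 ± 0.10 (SE, adjusted p = 0.498) in shTST and 0.31 ± 0.11 (SE, adjusted p = 0.0275) for the direct difference. The direct call was lost with length correction, at 0.22 (adjusted p = 0.112), and without shTST replicate 2 or overTST replicate 4 (adjusted p = 0.127 and 0.114). ABCC3, the basolateral MRP3, and ABCC11, an exporter known from apocrine glands, were not called as counted. ABCC11 went the other way from the rest of this group. Its values, 0.27 in shTST and 0.26 in overTST, were the highest of the tested ABC genes as counted. Its mean was 2.29 CPM in WT, 2.77 CPM in shTST and 2.74 CPM in overTST. ABCC3 was at -0.17 ± 0.06 (SE, adjusted p = 0.0535) in shTST and -0.10 ± 0.05 (SE, adjusted p = 0.161) in overTST, where length correction turned the sign to 0.04 (adjusted p = 0.595). Its direct difference was -0.07 ± 0.06 (SE, adjusted p = 0.420) as counted and -0.19 (adjusted p = 0.0138) length-corrected.

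Peroxisomal transporters import fatty acyl-CoA species into peroxisomes, where very-long and branched chains are shortened. ABCD3, or PMP70, handles branched-chain and bile-acid precursors (ENSG00000117528, chr1:94418455-94518666, plus strand). ABCD3 had 106.0, 106.2, 106.3 and 101.5 CPM in WT, 111.9, 105.9, 92.7 and 101.2 CPM in shTST and 85.5, 71.9, 73.6 and 71.3 CPM in overTST. The overTST libraries were the low ones, and WT and shTST overlapped. Relative to WT, ABCD3 was -0.03 ± 0.05 (SE, adjusted p = 0.750) in shTST, with a 95% interval of -0.13 to 0.07 and a length-corrected value of -0.01 (adjusted p = 0.888), and -0.47 ± 0.06 (SE, adjusted p = 1.30e-06) in overTST. Between the engineered lines it was higher in shTST, at 0.44 ± 0.06 (SE, adjusted p = 5.21e-06). Length correction gave 0.36 (adjusted p = 1.57e-05), and the direct call held in 19 of 19 alternatives.

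Transporters of mitochondria and of heme and iron handling differed among themselves. ABCB10, an inner-membrane protein needed for heme synthesis in erythroid cells, was lower in overTST (ENSG00000135776, chr1:229516582-229558695, minus strand). ABCB10 had 31.4, 31.8, 32.4 and 28.9 CPM in WT, 30.1, 27.7, 25.3 and 30.1 CPM in shTST and 25.8, 21.4, 22.3 and 23.1 CPM in overTST. The 4 overTST values were below every WT value, and 1 of them, at 25.8, was above the lowest of shTST. The change was -0.43 ± 0.07 (SE, adjusted p = 5.17e-05) in overTST, -0.14 ± 0.06 (SE, adjusted p = 0.139) in shTST and 0.29 ± 0.07 (SE, adjusted p = 0.00260) for the direct difference, which held in 19 of 19 alternatives. ABCB6, a porphyrin transporter, was the 1 gene called higher (ENSG00000115657, chr2:219209768-219218990, minus strand). ABCB6 had 31.4, 30.7, 26.6 and 30.5 CPM in WT, 31.8, 28.6, 28.6 and 32.1 CPM in shTST and 33.5, 32.3, 36.4 and 37.4 CPM in overTST. All overTST libraries exceeded WT and shTST, by the narrow gap between 32.1 and 32.3 CPM in the case of shTST.

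For ABCB6 the change was 0.23 ± 0.07 (SE, adjusted p = 0.0115) in overTST and 0.02 ± 0.06 (SE, adjusted p = 0.851) in shTST, and the direct difference was -0.21 ± 0.07 (SE, adjusted p = 0.0179). The first call was lost without overTST replicate 4 (adjusted p = 0.0502). The direct call was lost without shTST replicate 2 or 3 or overTST replicate 3 or 4 (adjusted p = 0.0648, 0.0590, 0.0626 and 0.0731). In GENCODE 29 ABCB6 overlaps AC068946.2, annotated as protein-coding on the same strand, so reads of the pair may be split.

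ABCB8, a part of the mitochondrial ATP-sensitive potassium channel also linked to iron export, was lower in shTST (ENSG00000197150, chr7:151028422-151047782, plus strand). ABCB8 had 29.5, 31.03, 35.1 and 30.6 CPM in WT, 27.6, 27.98, 27.3 and 25.5 CPM in shTST and 27.9, 30.9, 31.2 and 31.2 CPM in overTST. The shTST libraries lay below WT, and 1 overTST library lay among them. The change was -0.22 ± 0.06 (SE, adjusted p = 0.0192) in shTST. In overTST the value was -0.06 ± 0.07 (SE, adjusted p = 0.548), and length-corrected it was 0.08 (adjusted p = 0.437). The call in shTST was lost without WT replicate 3 or shTST replicate 4 (adjusted p = 0.0715 and 0.0785). Between the lines ABCB8 was -0.16 ± 0.06 (SE, adjusted p = 0.0549) as counted and -0.28 (adjusted p = 0.00297) length-corrected. It passed in 9 of 19 alternatives, among them DESeq2 (adjusted p = 0.0417), RLE and upper-quartile scaling (adjusted p = 0.0498 and 0.0432), the filter at 1 CPM (adjusted p = 0.0463), a fit of the 8 libraries compared (adjusted p = 0.0470), the replicate block (adjusted p = 0.0408) and without overTST replicate 1 (adjusted p = 0.0192).

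Exporters of sterols and phospholipids showed 1 large difference. ABCA1 loads cholesterol and phospholipid onto apolipoprotein A-I and is a known target of the liver X receptors (ENSG00000165029, chr9:104781002-104928237, minus strand). ABCA1 had 48.9, 49.7, 46.8 and 37.5 CPM in WT, 50.8, 51.6, 50.9 and 51.2 CPM in shTST and 35.6, 34.1, 34.3 and 32.6 CPM in overTST. The shTST libraries lay close together and above every WT library, and the overTST libraries were below every WT library. ABCA1 was 0.58 ± 0.07 (SE, adjusted p = 9.87e-07) in shTST against overTST, the largest called difference of the family in that comparison. Against WT it was -0.42 ± 0.07 (SE, adjusted p = 9.67e-05) in overTST and 0.16 ± 0.07 (SE, adjusted p = 0.106) in shTST. Length correction left 0.44 (adjusted p = 1.25e-05), -0.26 (adjusted p = 0.00630) and 0.19 (adjusted p = 0.0410), so that the last passed the threshold. As counted, the last value also passed without WT replicate 2 (adjusted p = 0.0379), but without WT replicate 4, the lowest WT library, it was 0.08 (adjusted p = 0.368).

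The other 3 tested members of this group were not called as counted. ABCG8 was at -0.05 ± 0.07 (SE, adjusted p = 0.688) in shTST and -0.03 ± 0.07 (SE, adjusted p = 0.807) in overTST, the latter -0.12 (adjusted p = 0.227) length-corrected. ABCG5, which forms the sterol exporter with ABCG8, was at 0.02 ± 0.12 (SE, adjusted p = 0.931) and -0.13 ± 0.11 (SE, adjusted p = 0.395). Their genes lie head to head on opposite strands of chromosome 2. As counted they did not overlap, with ABCG5 at 43812472-43838865 and ABCG8 at 43838964-43878466, while GENCODE 29 gives an overlap of 6924 bases. ABCA7, a phospholipid exporter known from Alzheimer's disease genetics, was -0.17 ± 0.09 (SE, adjusted p = 0.167) in shTST against overTST as counted and -0.27 (adjusted p = 0.0314) length-corrected.

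Among transporters of lysosomes, lamellar bodies and other organelles, 2 of 5 were lower in overTST, beside 18.2% of all genes, and 0 in shTST, beside 9.40%. After length correction 0 of 5 were lower in overTST, beside 14.3%. In shTST DESeq2 and limma-voom also gave 0, and 1, ABCA2, had an unadjusted p under 0.05. ABCA5, a lysosomal lipid transporter, had few counts (ENSG00000154265, chr17:69244311-69327244, minus strand). ABCA5 had 3.69, 3.84, 4.21 and 4.05 CPM in WT, 4.97, 3.11, 3.39 and 4.08 CPM in shTST and 3.17, 2.12, 2.96 and 3.09 CPM in overTST. The overTST libraries were below WT, and the shTST libraries ranged on both sides of WT. The values were -0.47 ± 0.14 (SE, adjusted p = 0.0126) in overTST and 0.45 ± 0.15 (SE, adjusted p = 0.0274) in shTST against overTST. Length correction ended both calls, at -0.29 (adjusted p = 0.136) and 0.29 (adjusted p = 0.166). Without overTST replicate 2 the adjusted p was 0.0611 and 0.121, and without shTST replicate 1 or 4 the second was 0.141 and 0.0655.

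ABCA2, a sterol and sphingolipid transporter of late endosomes and lysosomes, was lower in overTST as counted (ENSG00000107331, chr9:137007227-137028922, minus strand). ABCA2 had 26.00, 24.8, 27.7 and 24.5 CPM in WT, 21.4, 22.99, 25.3 and 22.5 CPM in shTST and 22.1, 20.9, 18.98 and 23.3 CPM in overTST. The overTST libraries were below WT and overlapped shTST. The value was -0.27 ± 0.07 (SE, adjusted p = 0.00513), and -0.11 (adjusted p = 0.307) after length correction. In shTST it was -0.15 ± 0.06 (SE, adjusted p = 0.108), and without shTST replicate 3 it passed (adjusted p = 0.0493). Leaving out shTST replicate 1 gave -0.115 (adjusted p = 0.311). ABCA3, the surfactant lipid transporter, ABCB9, a lysosomal peptide transporter, and ABCD4, which handles vitamin B12 at the lysosome, were called in no comparison, with values between -0.31 and 0.10. Length-corrected they were not called either, with values between -0.40 and 0.15. In overTST ABCB9 moved from -0.18 to 0.0038 (adjusted p = 0.979) and ABCA3 from -0.0046 to 0.10 (adjusted p = 0.719). In shTST against overTST ABCB9 moved from 0.10 to -0.06 (adjusted p = 0.625). ABCA4, the retinal transporter and the lowest of the tested genes, had wide errors, at -0.14 ± 0.32 (SE, adjusted p = 0.815) in shTST and 0.26 ± 0.28 (SE, adjusted p = 0.516) in overTST.

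The ATPases that do not transport showed small values. ABCF1, ABCF2 and ABCF3, which act in translation and its control, were called in no comparison, with values between -0.08 and 0.04 and standard errors of 0.04 to 0.05. After length correction none of them was called either, and 1 changed its sign in overTST, to 0.03. ABCE1 splits ribosomes for recycling (ENSG00000164163, chr4:145097932-145129179, plus strand). ABCE1 had 112.1, 108.7, 105.7 and 108.0 CPM in WT, 110.0, 112.1, 98.97 and 109.2 CPM in shTST and 106.6, 97.6, 97.1 and 87.03 CPM in overTST. In GENCODE 29 ABCE1 overlaps OTUD4 on the opposite strand, and ABCF2 overlaps AC021097.2 on its own strand. The groups of ABCE1 overlapped, and the overTST value of 87.0 CPM was the lowest of all. As counted ABCE1 was -0.16 ± 0.06 (SE, adjusted p = 0.0273) in overTST and 0.15 ± 0.05 (SE, adjusted p = 0.0373) in shTST against overTST, and length correction ended both calls, at -0.09 (adjusted p = 0.206) and 0.09 (adjusted p = 0.211). Without overTST replicate 4 the adjusted p was 0.137 and 0.175. The first was also lost without WT replicate 1 or 4 or overTST replicate 2 or 3 (adjusted p = 0.0828, 0.0574, 0.0552 and 0.0642), and the second without shTST replicate 1, 2 or 4 or overTST replicate 2 or 3 (adjusted p = 0.0903, 0.111, 0.0861, 0.0639 and 0.0739).

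Genes that work with the ABC transporters were read from lists chosen for their roles. Of 12 genes of cholesterol efflux and its liver X receptor control, 1 was higher and 2 lower in shTST, beside 6.69% and 9.40% of all genes, and 4 were higher and 1 lower in overTST, beside 15.7% and 18.2%. NPC1, which releases cholesterol from lysosomes, was lower in both lines, at -0.50 ± 0.05 (SE, adjusted p = 3.58e-06) and -0.56 ± 0.06 (SE, adjusted p = 2.94e-07). Its partner NPC2 was higher in overTST, at 0.31 ± 0.07 (SE, adjusted p = 7.12e-04), as was APOE, at 0.34 ± 0.09 (SE, adjusted p = 0.00325) and length-corrected 0.21 (adjusted p = 0.0384). In shTST the receptor gene NR1H3 was -0.23 ± 0.06 (SE, adjusted p = 0.00673) and the sterol regulator SREBF1 0.21 ± 0.06 (SE, adjusted p = 0.0124). Directly compared, NR1H2, the other liver X receptor, was lower in shTST, at -0.30 ± 0.06 (SE, adjusted p = 3.70e-04), and LPCAT3, a phospholipid remodelling enzyme, higher, at 0.24 ± 0.06 (SE, adjusted p = 0.00410). NPC2 was at -0.18 ± 0.06 (SE, adjusted p = 0.0252), which length correction ended, at -0.10 (adjusted p = 0.171).

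Of 16 genes of bile acid handling and its receptor FXR, 12 were tested, and 1 was higher and 2 lower in each engineered line. Among all genes these shares were 6.69% and 9.40% in shTST and 15.7% and 18.2% in overTST, so the counts of this list lay near the background. NR1H4, which encodes FXR, was higher in shTST, at 0.22 ± 0.05 (SE, adjusted p = 0.00665), and its target NR0B2 lower, at -0.32 ± 0.07 (SE, adjusted p = 0.00431). FGFR4, the receptor of the bile acid signal FGF19, was lower in shTST, at -0.16 ± 0.05 (SE, adjusted p = 0.0284), and in overTST, at -0.20 ± 0.05 (SE, adjusted p = 0.00347). Its co-receptor KLB was lower in overTST, at -0.36 ± 0.05 (SE, adjusted p = 2.09e-05). SLC51B, a subunit of the basolateral bile acid exporter, was higher there as counted, at 0.31 ± 0.09 (SE, adjusted p = 0.00609), and not after length correction, at 0.14 (adjusted p = 0.204). Between the lines 4 were higher in shTST and 3 lower, beside 16.9% and 16.1% of all genes, among them KLB at 0.42 ± 0.05 (SE, adjusted p = 1.37e-06), the conjugating enzyme BAAT at 0.78 ± 0.16 (SE, adjusted p = 5.33e-04) and NR0B2 at -0.49 ± 0.08 (SE, adjusted p = 8.21e-05).

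Of 8 regulators that sense drugs or control transporter genes, 1 was lower in shTST and 3 in overTST, beside 9.40% and 18.2% of all genes, and 0 were higher than WT in either with edgeR, DESeq2 or limma-voom, or at an unadjusted p under 0.05. KEAP1, the inhibitor of NRF2, was lower in shTST, at -0.20 ± 0.05 (SE, adjusted p = 0.00566). In overTST the fatty acid receptor PPARA was -0.43 ± 0.06 (SE, adjusted p = 2.25e-05), and length-corrected -0.24 (adjusted p = 0.00392). NFE2L2, which encodes NRF2, was -0.21 ± 0.05 (SE, adjusted p = 0.00372). The hepatocyte factor HNF4A was -0.15 ± 0.05 (SE, adjusted p = 0.0125), which length correction ended, at -0.06 (adjusted p = 0.375). In shTST against overTST 4 were higher, beside 16.9% of all genes, with PPARA at 0.34 ± 0.06 (SE, adjusted p = 1.79e-04), HNF4A at 0.19 ± 0.04 (SE, adjusted p = 6.86e-04) and NFE2L2 at 0.19 ± 0.05 (SE, adjusted p = 0.00738). Length correction moved PPARA to 0.18 (adjusted p = 0.0273) and HNF4A to 0.11 (adjusted p = 0.0422).

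Of 12 partners of organelle and ribosome ABC proteins, 11 were tested, and 0 passed in shTST with edgeR, DESeq2 or limma-voom, with 1, LMBRD1, lower at an unadjusted p under 0.05. In overTST 2 of the 11 were lower, no more than the 18.2% of all genes: the translation release factor ETF1, at -0.16 ± 0.06 (SE, adjusted p = 0.0269), and KCNJ11, the pore subunit that pairs with ABCC8, at -1.26 ± 0.24 (SE, adjusted p = 3.04e-04). Between the lines 3 were higher in shTST and 1 lower, beside 16.9% and 16.1% of all genes, with KCNJ11 at 1.37 ± 0.29 (SE, adjusted p = 7.65e-04), HBS1L, a ribosome rescue factor, at 0.17 ± 0.06 (SE, adjusted p = 0.0305) and the peroxisome assembly factor PEX16 at -0.23 ± 0.07 (SE, adjusted p = 0.0103), the last pair not after length correction, at 0.03 (adjusted p = 0.761) and -0.17 (adjusted p = 0.0528). Among 3 ABC genes with names of another form, TAP1, a subunit of the antigen peptide transporter, was lower in both lines, at -0.21 ± 0.05 (SE, adjusted p = 0.00593) and -0.22 ± 0.06 (SE, adjusted p = 0.00347), TAP2 was not called and CFTR was too low to be tested.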

How the data were processed

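The authors deposited, for each of the 12 libraries, a table of unnormalized read counts, 1 whole number and 1 exonic length for every Ensembl gene. The submitters' processing notes name Trimmomatic 0.36, STAR 2.5.2b, featureCounts of Subread 1.5.2 and GRCh38, while the annotation release and the use of strand are not given in the sources used here. GENCODE 29 named 56898 of the 57500 identifiers, and its start and end matched those of 36 of the 45 ABC genes.

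Counts were filtered with filterByExpr, scaled by TMM and tested with edgeR 4.0.16 (quasi-likelihood, Benjamini-Hochberg adjustment over all genes, threshold 0.05) in R 4.3.3. Each line was compared with WT on its own 8 libraries, and shTST with overTST in a fit of all 12. Standard errors were obtained from the F statistic, as log2 fold change over its root. The length correction removed, per library, a lowess trend (span 0.3) of the log2 deviation on log length as an offset. CPM used TMM-scaled library sizes, and TPM the deposited lengths. For single values an exact permutation test, two-sided, was used (SciPy 1.17.1). The script was tested on simulated data.

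Alternatives were DESeq2 1.42.0, limma-voom 3.58.1, RLE and upper-quartile scaling, no filter, a filter at 1 CPM that 4 libraries had to exceed, a fit without mitochondrially encoded genes, a replicate block, length correction with and without it, another set of libraries in the fit, and leaving out each library.

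The members and lists were chosen with earlier results of these data known. All ABC genes enter the counts, but 2 are not reported here one by one. The others called in at least 1 comparison are given per library, and from each list the 3 called genes with the smallest p are named. Replicates are numbered in the labels, and the methods define independent experiments as ones made on different days. Libraries of a group differed by far more than sampling noise (chi-square per gene 3.58 to 35.3 over 18 pairs).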

Additional observations from a re-analysis of the deposited data

Results flagged for a closer look

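Within groups of 4 libraries, a value was singled out when its gap to the nearest other value took up more of the range of its group than Dixon's 95% critical value allows. Of 90 groups examined for 29 tested ABC genes and TST, 8 had such a value, and chance gives about 1 in 20. In WT, replicate 2 was high for ABCC1, with 185.9 CPM against 158.4 to 161.5 in the others, and replicate 4 was low for ABCD3, with 101.5 CPM against 106.0 to 106.3. In shTST, replicate 3 was low for ABCC2, with 78.1 CPM against 84.7 to 85.9, and high for TST, with 36.5 CPM against 33.0 to 33.5, and replicate 4 was high for ABCD4, with 19.5 CPM against 17.1 to 17.5. In overTST, replicate 1 was low for ABCB8, with 27.9 CPM against 30.9 to 31.2, and high for ABCD3, with 85.5 CPM against 71.3 to 73.6, and for ABCF2, with 85.7 CPM against 76.4 to 77.6. Without WT replicate 2, ABCC1 was still lower in shTST (adjusted p = 0.00448) and in overTST (adjusted p = 3.97e-05) with edgeR. Without shTST replicate 3, the direct difference of ABCC2 between shTST and overTST became called (adjusted p = 0.0349), and without overTST replicate 1 that of ABCB8 did (adjusted p = 0.0192). Without overTST replicate 1, ABCD3 was still lower in overTST (adjusted p = 1.56e-08).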

How the results depend on the processing

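Of 33 calls of named ABC genes over the 3 comparisons, 16 held in each of the 19 alternatives run (3 in shTST against WT, 10 in overTST against WT and 3 in shTST against overTST), and no called value changed its sign. Of 627 called values under alternatives, 550 kept their call and 77 lost it. Length correction ended 0, 5 and 6 calls in these comparisons.

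Genes higher in shTST than WT numbered 0, and 1 with no filter (ABCA13, with 12 counts in shTST and 0 in WT), with the replicate block, with length correction and with both, and 0 to 1 without single libraries. Those lower numbered 8, and 5 to 9 without single libraries, the 5 without shTST replicate 1, beside 869 of all 14862 genes. In overTST the 1 higher gene became 0 to 1 without single libraries, and the 15 lower genes 12 to 15. In shTST against overTST, the 10 higher genes became 4 with length correction, with or without the block, and 5 to 11 without single libraries. Among all genes those higher without single libraries numbered 2047 to 2728. The 2 lower genes became 5 with length correction, 6 with the block added, and 1 to 3 without single libraries.

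Same-numbered libraries did not deviate together across genes (correlations -0.0527 to 0.0801). Such correlations cannot exclude that libraries with the same number were paired, for instance by day. With the replicate block, 10 genes were lower in shTST, 16 lower and 1 higher in overTST, and 10 higher and 3 lower in shTST against overTST. Among all genes these numbers were 1733 of 14584, 2758 and 2408 of 14421, and 2676 and 2556 of 14883.

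Values not called changed sign around 0. In shTST against WT, ABCA5 became 0.0031 with length correction and -0.15 to 0.071 without single libraries. ABCE1 became 0.0068 with upper-quartile scaling and -0.029 to 0.027 without single libraries. Also without single libraries, ABCB6 ran from -0.024 to 0.054 and ABCD3 from -0.065 to 0.021. In overTST against WT, ABCB8 became 0.079 with length correction and 0.080 with the block added. In shTST against overTST, ABCA2 became -0.026 with length correction and -0.030 with the block added. ABCC5 became 0.019 with no filter, 0.0003 in a fit of the 8 libraries compared and -0.040 to 0.049 without single libraries. The cause of these changes was not tested.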
